A study of Mus musculus with 6 samples.

Results

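The respiratory chain of mitochondria is assembled from protein subunits encoded in the nucleus and in the mitochondrial genome, and the nuclear-encoded genes were examined here in the retina of 2 mouse strains. Members were chosen by gene name alone: features of the deposited count table named as NADH dehydrogenase (Nduf), succinate dehydrogenase (Sdh), cytochrome c reductase (Uqcr), cytochrome c oxidase (Cox4 to Cox8) or ATP synthase (Atp5) genes, without named pseudogenes. This gave 92 of 30510 features, of which 44 belonged to complex I, 4 to complex II, 8 to complex III, 20 to complex IV and 16 to complex V. The name rule also brought in genes that are not subunits. The Ndufaf assembly factors, with Atp5sl (annotated as Dmac2), were counted with complex I as assembly factors. Ndufa4 and its paralog Ndufa4l2 carry a complex I name but were placed with complex IV, where Ndufa4 is known to reside.

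The retinas came from wild type mice of the inbred strains C57BL/6J (B6) and DBA/2J (D2) at 60 to 100 days after birth, and total RNA was sequenced in 3 libraries a strain. DBA/2J is widely used as a model of inherited glaucoma. No label ties a library to a mouse of its own, so the p-values below reflect only how far these libraries spread, part of which may be technical.

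Complexes I to IV pass electrons from NADH and succinate to oxygen, and all but complex II pump protons across the inner mitochondrial membrane; complex V uses the proton gradient to make ATP. Complex I takes electrons from NADH, complex II from succinate, complex III passes them to cytochrome c, and complex IV reduces oxygen. Photoreceptors, the most numerous cells of the mouse retina, hold dense mitochondria in their inner segments and are known for a very high rate of energy use.

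Library totals ranged from 29417002 to 43719666 counts, and the members together took 0.843% to 0.877% of them. At this depth a count of 0 in a library allows up to 0.0686 to 0.102 CPM (counts scaled to the library total), a limit that covers counting error only. The rod transducin gene Gnat1 reached 7801 to 9108 CPM in the 6 libraries. Markers of the retinal pigment epithelium (Rpe65, Lrat, Rgr, Ttr and Best1) summed to between 51.6 and 153 CPM in B6 and between 35.7 and 123 CPM in D2, so that their level varied between libraries of the same strain.

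Most nuclear-encoded respiratory chain genes had nearly the same transcript level in both strains, with a limited set of exceptions in complexes I, II, IV and V. Of the 92 members, 89 passed the filter on low counts and were tested, and 3 complex IV isoforms (Cox6a2, Cox7b2 and Cox8c) did not. With edgeR's quasi-likelihood test and Benjamini-Hochberg adjustment over all 18588 tested genes, 19 of the 89 had an adjusted p under 0.05, or 21.3%, against 29.7% of all genes. In D2 7 members were higher (Atp5g1, Atp5g2, Atp5sl, Cox5a, Cox6a1, Ndufab1 and Sdhb), and 14.5% of all genes were. The other 12 were lower in D2, among them Cox4i2, Cox5b, Cox7a1, Cox7a2l, Cox7b, Cox7c, Ndufa1, Ndufc2, Ndufs6, Sdha and Sdhc, against 15.3% of all genes. Among the 89 tested members, the 3 libraries of each strain did not overlap for 33, including all 19 that passed the test. They did not overlap for 42.3% of all tested genes.

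The differences were small. The median log2 fold change (D2 minus B6) over the 89 tested members was -0.00, against 0.00 over all tested genes, and the median of its absolute size was 0.05, against 0.13. The median standard error was also smaller, 0.04 against 0.07, so these absolute sizes were not measured with like precision. Among those that passed the test, 7 members differed by 1.2-fold or more (18% of all genes did so and passed the test), and 1 member, Cox7a1, by 1.5-fold or more (8.97% of all genes). Outside the tissue-restricted isoforms of complex IV, 67 tested members did not pass the test, and their log2 fold changes lay between -0.15 and 0.14. Summed over all members, the level in D2 was 0.981 times that in B6, with 8697 ± 83.6 CPM in B6 against 8529 ± 232 CPM in D2 (SD, n = 3 each), and the libraries overlapped. In bulk tissue, fewer cells of a type and less RNA per cell cannot be told apart.

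**Figure D1:**
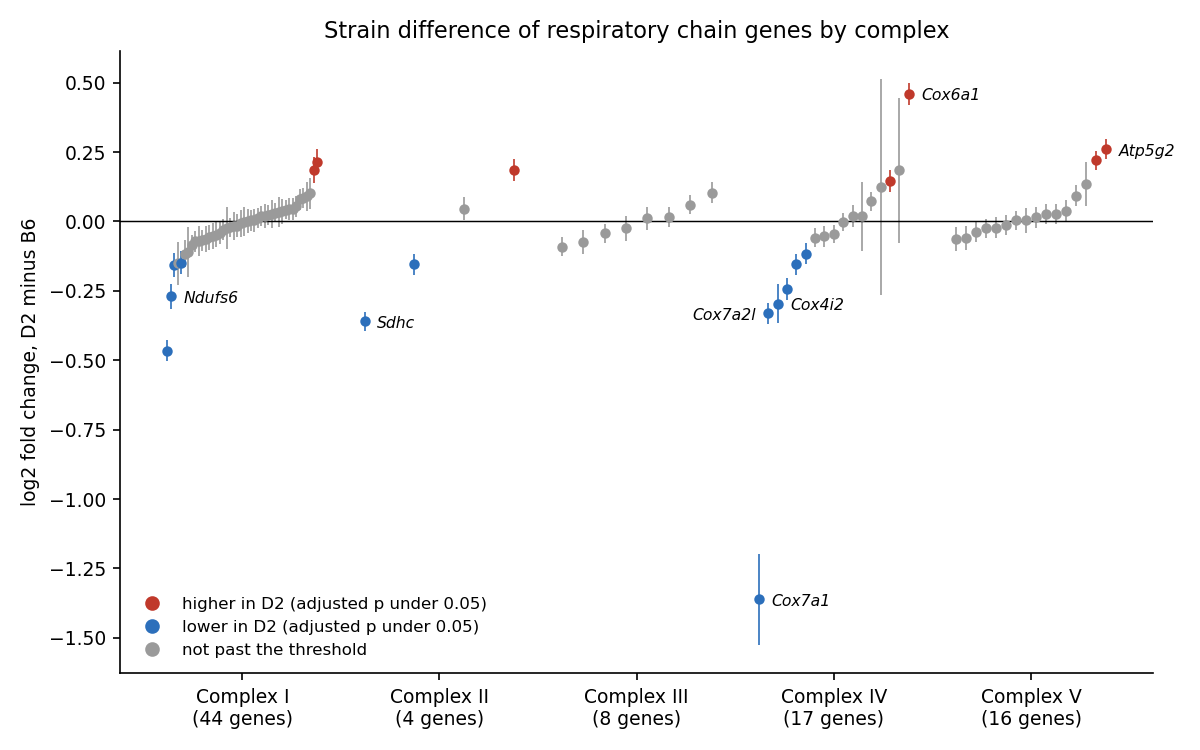
Log2 fold change (D2 minus B6) with its standard error for the 89 tested members, in order of size within each complex; colours mark an adjusted p under 0.05. Most points lie near 0, and Cox7a1 at -1.36 is the lowest and Cox6a1 at 0.46 the highest.

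The promoter windows of members were read from RefSeq (build GRCm38.p6, 250 bases before to 50 bases after each start), in which 76 of the 92 members had an entry. Short motifs of 3 factors known to act on respiratory chain genes were searched on both strands: GCGCATGC of nuclear respiratory factor 1 (NRF1), ACTTCCGG of the ETS family, to which the GA-binding protein belongs, and AAGATGGCG of YY1. The NRF1-like letters were found in 12 of 76 member promoters (15.8%, against 3.05% of 27025 genes with a promoter entry), the ETS letters in 5 (6.58% against 4.31%) and the YY1 letters in 8 (10.5% against 1.64%). At least 1 of the motifs was present in 24 of 76 member promoters, or 31.6%, against 8.47% of all genes. Of the 19 members that passed the test, 16 had a promoter entry and 5 of these held a motif: the NRF1-like letters in Cox6a1, Atp5g2 and Sdhb, all higher in D2, and the YY1 letters in Atp5sl, higher in D2, and Ndufs6, lower in D2. Of the 12 member promoters with the NRF1-like letters, only these 3 belonged to members that passed the test. Those of Ndufa8, Atp5k and Atp5l, among others, belonged to members that did not pass it. Whether a motif goes with a strain difference was not tested. A match is a description of these letters and not evidence of binding.

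Of those 5 promoters, 4 are shown to place each motif relative to the start, which lies 50 bases before the end of each sequence. All are written 5′ to 3′ on the gene's own strand, with the motif, on either strand, in capitals. The windows are chr5:115348909-115349208 (minus strand) for Cox6a1, chr15:102670998-102671297 (minus strand) for Atp5g2, chr4:140961021-140961320 (plus strand) for Sdhb and chr13:73328433-73328732 (minus strand) for Ndufs6.
Cox6a1: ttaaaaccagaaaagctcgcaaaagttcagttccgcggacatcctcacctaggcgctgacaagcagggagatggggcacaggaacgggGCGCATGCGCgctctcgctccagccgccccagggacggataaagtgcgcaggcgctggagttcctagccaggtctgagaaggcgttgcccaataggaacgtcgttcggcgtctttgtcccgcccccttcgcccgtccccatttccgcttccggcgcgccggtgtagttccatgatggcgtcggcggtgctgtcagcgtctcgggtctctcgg
Atp5g2: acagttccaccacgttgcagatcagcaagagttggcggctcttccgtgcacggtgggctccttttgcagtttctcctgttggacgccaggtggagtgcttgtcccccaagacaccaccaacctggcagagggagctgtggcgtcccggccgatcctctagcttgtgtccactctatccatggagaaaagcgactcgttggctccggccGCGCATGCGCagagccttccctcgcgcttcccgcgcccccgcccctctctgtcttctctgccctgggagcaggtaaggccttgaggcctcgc
Sdhb: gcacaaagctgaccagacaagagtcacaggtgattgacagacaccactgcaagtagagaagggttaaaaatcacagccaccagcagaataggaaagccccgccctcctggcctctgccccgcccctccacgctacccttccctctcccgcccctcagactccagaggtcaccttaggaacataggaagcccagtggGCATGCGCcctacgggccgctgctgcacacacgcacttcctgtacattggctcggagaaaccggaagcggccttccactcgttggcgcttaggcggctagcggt
Ndufs6: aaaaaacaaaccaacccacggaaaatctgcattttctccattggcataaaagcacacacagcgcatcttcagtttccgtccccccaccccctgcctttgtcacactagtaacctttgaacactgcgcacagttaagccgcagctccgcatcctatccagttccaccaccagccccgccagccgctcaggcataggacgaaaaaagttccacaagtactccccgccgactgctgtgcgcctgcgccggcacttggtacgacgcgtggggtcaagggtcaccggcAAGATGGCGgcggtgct
In Cox6a1 and Atp5g2 the motif overlaps its own reverse complement, so that the capitals run over both matches. In Ndufs6 the YY1 letters fall after the start, near the end of the window.

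Complex I passed the test in 6 of 44 members, 2 higher and 4 lower (13.6%, against 29.7% of all tested genes). Its median log2 fold change was -0.00, and its summed level in D2 was 0.976 times that in B6. The nuclear-encoded core subunits carry the flavin and the iron-sulfur clusters. Among them the electron-carrying Ndufs1 averaged 155 ± 3.99 CPM in B6 against 160 ± 2.89 CPM in D2 (SD, n = 3 each) and did not pass the test (log2 fold change 0.04 ± 0.03 SE, edgeR adjusted p = 0.406). Ndufs1 does not stand for the core as a whole, since the other core subunits are not described by name here.

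Among the 29 accessory subunits, which surround the core and serve assembly and stability, 1 was higher and 3 were lower in D2. That was 13.8%, against 29.7% of all tested genes. Ndufs6, an accessory subunit that binds zinc and whose promoter is shown above, had 36.3, 35.7 and 37.8 CPM in B6 and 31.4, 30.5 and 29.2 CPM in D2. Each D2 library was below each B6 library, with a log2 fold change of -0.27 ± 0.05 (SE; edgeR adjusted p = 0.000357). Ndufa1, encoded on the X chromosome and needed to build the membrane arm, had 38.0, 40.2 and 40.6 CPM in B6 and 35.6, 34.9 and 35.9 CPM in D2. That difference was small but did not overlap between the strains (-0.16 ± 0.04, adjusted p = 0.0126). Ndufc2 averaged 76.9 ± 3.82 CPM in B6 against 69.5 ± 1.90 CPM in D2 (SD, n = 3 each; -0.15 ± 0.04, adjusted p = 0.0144), a call that was lost when B6 replicate 1, B6 replicate 2 or D2 replicate 2 was left out, with an adjusted p of up to 0.0667.

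Ndufab1, the mitochondrial acyl carrier protein, serves both as a subunit of complex I and in fatty acid and lipoic acid synthesis. Its level was 29.8, 29.6 and 32.2 CPM in B6 and 34.2, 35.6 and 34.0 CPM in D2. D2 was higher in all 3 libraries, with a log2 fold change of 0.18 ± 0.05 (SE; adjusted p = 0.00792). Of the 8 assembly factors, which help build the complex and are not part of the finished enzyme, Atp5sl alone passed the test. It had 29.6, 30.99 and 29.7 CPM in B6 and 36.1, 34.5 and 34.2 CPM in D2, again without overlap (0.21 ± 0.04, adjusted p = 0.00182). The membrane-arm subunits Ndufb2 and Ndufb8, which had the highest complex I levels per kilobase on the transcripts used here, did not pass it; the rank of Ndufb2 holds only for its shortest principal transcript. Ndufb2 had 76.1, 81.9 and 77.8 CPM in B6 and 80.5, 81.0 and 83.2 CPM in D2. Ndufb8 had 121, 113 and 116 CPM in B6 and 118, 115 and 121 CPM in D2, and in both genes the strains overlapped.

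Complex II, succinate dehydrogenase, is the only complex shared with the citric acid cycle and has no mitochondrially encoded subunit. Of its 4 genes, 3 passed the test, 1 higher and 2 lower in D2 (75.0%, against 29.7% of all tested genes). Sdhc (chr1:171127165-171150603), which helps anchor the enzyme in the membrane and binds heme, had 109, 103 and 104 CPM in B6 and 82.8, 82.1 and 82.1 CPM in D2. The strains were clearly apart, 22.1% lower in D2 (log2 fold change -0.36 ± 0.03 SE, edgeR adjusted p = 1.42e-06). Sdha, the flavoprotein that oxidizes succinate, had 259, 265 and 246 CPM in B6 and 225, 231 and 237 CPM in D2. All 3 D2 libraries were lower (-0.15 ± 0.04, adjusted p = 0.00535).

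Sdhb, the iron-sulfur subunit that passes electrons from Sdha towards ubiquinone, moved the other way. It had 46.2, 44.8 and 45.9 CPM in B6 and 52.4, 51.8 and 51.3 CPM in D2. The D2 libraries were all higher (log2 fold change 0.18 ± 0.04 SE, adjusted p = 0.00182). Sdhd, the partner of Sdhc in the membrane, averaged 49.6 ± 1.14 CPM in B6 against 51.3 ± 1.73 CPM in D2 (SD, n = 3 each) and did not pass the test (adjusted p = 0.448). The same values also give ratios between the transcripts, which are not a separate test. Per kilobase of transcript, Sdhc stood at 82.6% ± 0.687 of Sdhd in B6 and at 62.4% ± 2.13 in D2. Sdhb stood at 45.2% ± 2.14 of Sdha in B6 and at 57.1% ± 2.06 in D2 (SD, n = 3 each), and neither ratio overlapped between the strains.

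The genes around the called members differed in how many were called, against 29.7% of all tested genes. Of 18 called members with a tested gene within 100 kb, 4 had no called neighbour and 7 had 1. The 7 include Atp5g2 and Cox7a2l, each with only 2 tested neighbours. For 8 of the 18, at least as many neighbours were called as not called. Around Cox7a1 7 of 11 were called (2 higher and 5 lower), around Ndufc2 5 of 7 and around Sdhb 4 of 6. All 10 tested neighbours of Sdhc were called, 3 higher and 7 lower in D2, and 8 of 10 were called around Cox6a1, 6 higher and 2 lower. By contrast 0 of 10 tested neighbours of Atp5sl and 1 of 11 of Cox5a were called by edgeR.

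Complex III, which oxidizes ubiquinol and reduces cytochrome c, had 2 of 8 members at an unadjusted p under 0.05 by edgeR. At the adjusted threshold edgeR called 0 of 8, against 29.7% of all tested genes. DESeq2 and limma-voom also called 0 of 8, and edgeR called 1 of 8 with upper quartile factors, with a filter at 1 CPM, or without B6 replicate 1. The summed level was 705 ± 6.85 CPM in B6 against 705 ± 15.1 CPM in D2 (SD, n = 3 each). Uqcrh, the hinge protein beside cytochrome c1 and the most abundant complex III transcript per kilobase, had 116, 112 and 110 CPM in B6 and 115, 110 and 117 CPM in D2. Uqcrb, which binds near the ubiquinone site, had 96.2, 95.5 and 93.1 CPM in B6 and 90.2, 87.6 and 89.8 CPM in D2. Uqcrh overlapped between the strains; Uqcrb did not, at an adjusted p of 0.0573 that fell to 0.0387 with upper quartile factors and to 0.0424 with the filter at 1 CPM. Uqcrfs1, the Rieske iron-sulfur protein, averaged 66.6 ± 2.02 CPM in B6 against 71.6 ± 1.54 CPM in D2 (SD, n = 3 each; adjusted p = 0.0548).

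Complex IV, cytochrome c oxidase, passed the test in 8 of its 17 tested members, 2 higher and 6 lower. That was 47.1%, against 29.7% of all tested genes. The median log2 fold change of the 17 was -0.04. The summed level in D2 was 0.966 times that in B6. The 3 catalytic subunits of complex IV are mitochondrially encoded, and its nuclear-encoded subunits surround them and tune activity, often with a ubiquitous and a tissue-restricted form of the same position. Cox6a1, the ubiquitous form of subunit VIa, showed the largest rise among the members. It had 65.0, 62.3 and 62.6 CPM in B6 and 89.9, 83.8 and 87.7 CPM in D2. All D2 libraries lay above all B6 libraries, 37.5% higher (log2 fold change 0.46 ± 0.04 SE, edgeR adjusted p = 2.95e-07). Cox5a, which regulates the enzyme through bound thyroid hormone metabolites, had 61.0, 61.2 and 58.7 CPM in B6 and 66.4, 64.7 and 69.1 CPM in D2. It was higher in every D2 library (0.15 ± 0.04, adjusted p = 0.0105), and without D2 replicate 3 its adjusted p was 0.0574.

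Cox7a2l, known as SCAF1, links complex III to complex IV in supercomplexes, and B6 is known to carry an allele that encodes a shortened protein. Its transcript had 154, 148 and 150 CPM in B6 and 120, 115 and 124 CPM in D2. The strains were apart in all 6 libraries (log2 fold change -0.33 ± 0.04 SE, edgeR adjusted p = 5.25e-06). Its paralog Cox7a2, the common form of subunit VIIa, had 102, 98.1 and 96.9 CPM in B6 and 101, 96.0 and 104 CPM in D2, which overlapped (0.02 ± 0.04, adjusted p = 0.766). Of the remaining ubiquitous subunits, Cox7c averaged 119 ± 3.97 CPM in B6 against 107 ± 2.52 CPM in D2 (SD, n = 3 each; -0.15 ± 0.04, adjusted p = 0.00466). Cox7b, encoded on the X chromosome, averaged 90.0 ± 1.92 CPM in B6 against 83.1 ± 2.85 CPM in D2 (-0.12 ± 0.04, adjusted p = 0.0277). Of the 6 fits without 1 library, those without B6 replicate 1, B6 replicate 2 or D2 replicate 2 lost this call (adjusted p of up to 0.114). Cox4i1, whose product is an early building block of the complex, had 243, 244 and 241 CPM in B6 and 237, 222 and 242 CPM in D2. Ndufa4 had 247, 246 and 246 CPM in B6 and 242, 233 and 242 CPM in D2. Neither passed the test, although the D2 libraries of Ndufa4 were all the lower ones.

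**Figure D2:**
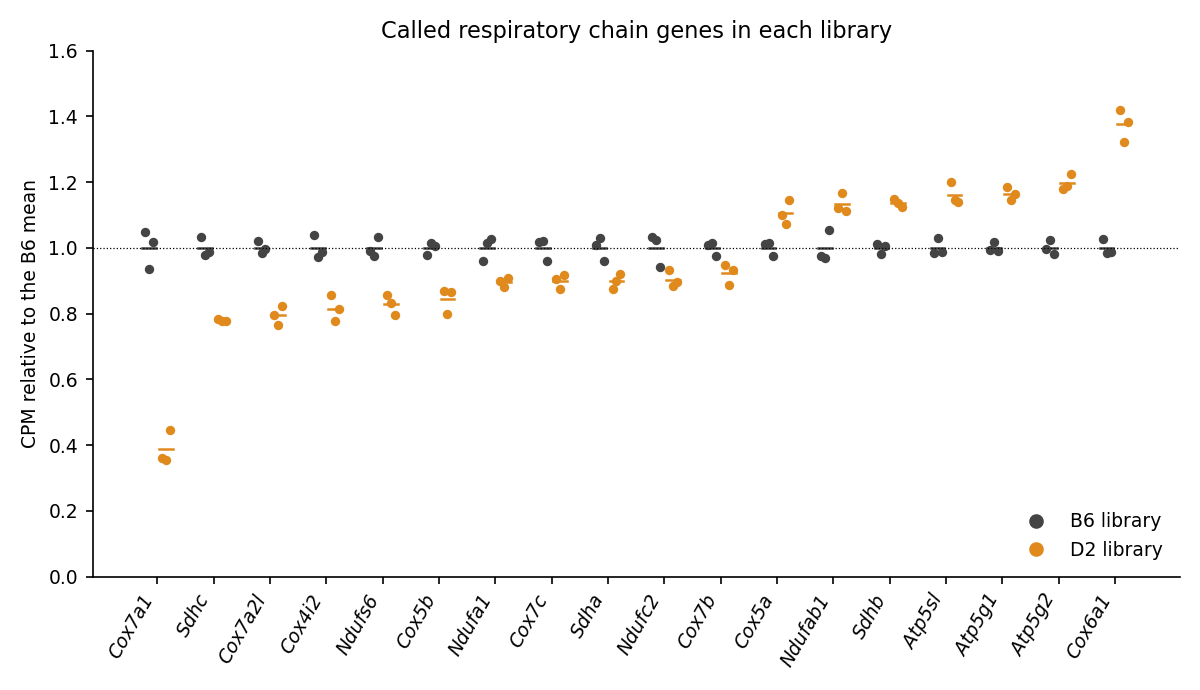
CPM of each library divided by the B6 mean for 18 of the members that passed the test, with a dash at the mean of each strain (n = 3). The D2 libraries lie apart from the B6 libraries in all 18 genes; Cox7a1 is the lowest and Cox6a1 the highest.

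Cox5b, a zinc-binding subunit facing the matrix, was lower in D2 but shares sequence with another feature that moved in the opposite direction. It had 94.2, 97.8 and 96.8 CPM in B6 and 83.6, 77.0 and 83.4 CPM in D2, without overlap (log2 fold change -0.24 ± 0.04 SE, edgeR adjusted p = 0.000225). Of the 31-base words of its transcripts, 15.8% also occur in those of Gm11273, a gene annotated as protein-coding on chromosome 13. Gm11273 had 7.08, 9.18 and 7.75 CPM in B6 and 19.3, 17.8 and 19.9 CPM in D2, higher in every D2 library (1.25 ± 0.09, adjusted p = 3.3e-08). The sum of both features was 104 ± 2.88 CPM in B6 against 100 ± 4.81 CPM in D2 (SD, n = 3 each), and the libraries overlapped. The Cox5b difference is therefore uncertain: a shift of reads between the features and a change in Cox5b RNA cannot be told apart in these counts.

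**Figure D3:**
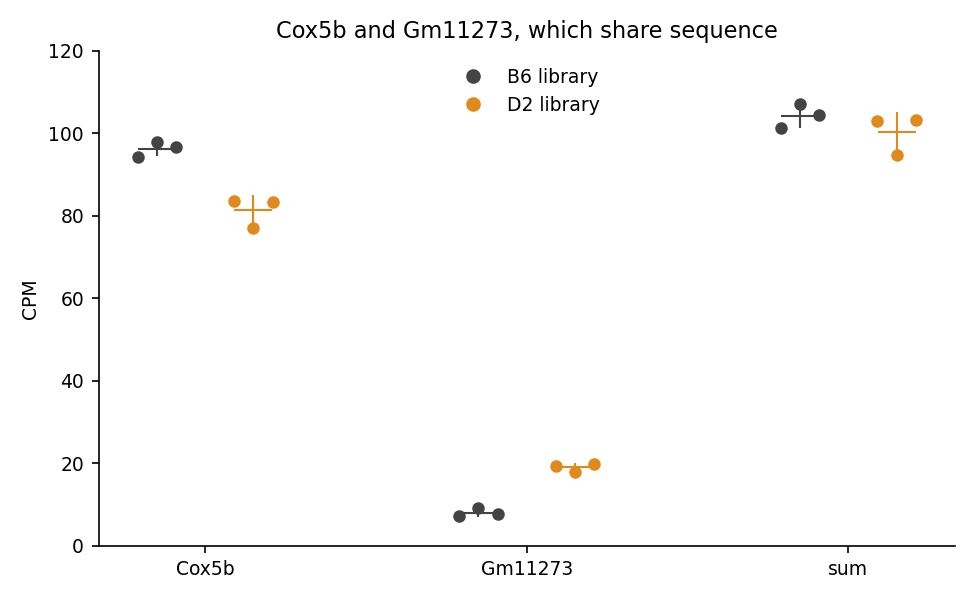
CPM of Cox5b, of Gm11273 and of their sum in each library, with the mean and SD of each strain (n = 3). Cox5b is lower and Gm11273 higher in D2, and the sums of 104 CPM in B6 and 100 CPM in D2 overlap.

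The tissue-restricted isoforms of complex IV were scarce in both strains. Of the 5 that were tested, 2 were lower in D2, against 15.3% of all tested genes. Cox7a1, the form of subunit VIIa typical of heart and skeletal muscle, had 2.91, 2.60 and 2.83 CPM in B6 and 1.01, 0.984 and 1.24 CPM in D2. Every D2 library was lower, 2.57-fold in the fit (log2 fold change -1.36 ± 0.16 SE, edgeR adjusted p = 1.39e-05), the largest change among the 89 tested members. Per kilobase of transcript, Cox7a1 made up 4.50% ± 0.213 of Cox7a1 and Cox7a2 together in B6 and 1.76% ± 0.164 in D2 (SD, n = 3 each). Cox4i2, the form of subunit IV found in lung and in cells that sense oxygen, had 12.5, 11.7 and 11.9 CPM in B6 and 10.3, 9.35 and 9.78 CPM in D2. It did not overlap between the strains either (-0.30 ± 0.07, adjusted p = 0.00484), and its share per kilobase of Cox4i1 and Cox4i2 was 4.83% ± 0.173 in B6 and 4.12% ± 0.139 in D2 (SD, n = 3 each).

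The other tested isoforms did not separate the strains. Ndufa4l2, a paralog of Ndufa4 induced by low oxygen, had 0.717, 0.674 and 0.804 CPM in B6 and 1.14, 0.646 and 0.719 CPM in D2. Cox6b2, the testis form of subunit VIb, had 2.80, 2.89 and 3.12 CPM in B6 and 2.91, 3.11 and 2.88 CPM in D2. Cox8b, the muscle form of subunit VIII, had 0.486, 0.939 and 0.675 CPM in B6 and 0.728, 1.26 and 0.317 CPM in D2. These 3 overlapped between the strains and spread widely at such low levels, with standard errors of 0.26, 0.12 and 0.39 on the log2 scale. Below the filter, Cox6a2, the muscle form of subunit VIa, gave 7, 4 and 4 counts in the B6 libraries, with 0, 1 and 0 in the D2 libraries. In CPM the D2 libraries of Cox6a2 lay below its B6 libraries, at counts too low to be tested. Cox7b2, a testis form, gave 1 count in every B6 library, with 0, 1 and 0 in D2, and Cox8c gave 0, 2 and 0 counts in B6, with 0 in each D2 library.

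Markers of cells that are known to carry these isoforms were set beside them. Of 8 markers of pericytes and vascular smooth muscle, which are known to express Cox4i2 and Ndufa4l2, 2 were lower in D2 by edgeR (Abcc9 and Cspg4). The other 6 did not pass the test, and 15.3% of all tested genes were lower in D2. The list summed to between 113 and 117 CPM in B6 and between 107 and 117 CPM in D2, most of it Rgs5 (log2 fold change 0.00). The median log2 fold change of the list was -0.13, with Pdgfrb at -0.20, Kcnj8 at -0.35, Abcc9 at -0.39 and Cspg4 at -0.66. Acta2 stood at 0.24, Tagln at 0.03 and Myh11 at -0.06. Of 12 skeletal muscle markers 5 were tested, with Acta1 higher and Pvalb lower in D2 (40.0%, against 29.7% of all tested genes). The skeletal muscle list summed to between 22.2 and 26.8 CPM in B6 and between 20.3 and 22.3 CPM in D2, most of it Pvalb, which retinal neurons also express. Its defining myosin genes Myh1, Myh2 and Myh4 were at or near 0, at most 0.104 CPM in a library. Ckm (1.85 CPM in B6 against 2.04 CPM in D2), Acta1 (1.44 against 2.15), Mylpf (2.11 against 1.97) and Atp2a1 (2.15 against 2.67) stood near the level of Cox7a1. The part of pericytes or muscle in the Cox4i2 and Cox7a1 differences was not tested.

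Complex V, the ATP synthase, passed the test in 2 of 16 members (12.5%, against 29.7% of all tested genes). Both were higher in D2 and both were c-ring genes. The c-ring is the rotor in the membrane, and the identical mature c subunit is encoded by Atp5g1, Atp5g2 and Atp5g3, whose products differ in the import signal that is removed. Atp5g1 had 69.4, 71.1 and 69.1 CPM in B6 and 82.9, 80.1 and 81.3 CPM in D2. Atp5g2 had 72.3, 74.3 and 71.2 CPM in B6 and 85.5, 86.2 and 89.0 CPM in D2. Both were higher in every D2 library, with log2 fold changes of 0.22 ± 0.04 and 0.26 ± 0.04 (SE; edgeR adjusted p = 0.0002 and 5.13e-05). Atp5g3 had 137, 135 and 135 CPM in B6 and 141, 133 and 142 CPM in D2, which overlapped (0.03 ± 0.04, adjusted p = 0.607). The 3 genes summed to 278 ± 2.88 CPM in B6 against 307 ± 6.56 CPM in D2 (SD, n = 3 each), with no overlap. Atp5g2 counts are less certain than the others, since 40.2% of its 31-base words occur in transcripts of other genes.

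The catalytic head and the stalks of the ATP synthase did not pass the test. Atp5b, the catalytic beta subunit and the most abundant member per kilobase, had 1286, 1232 and 1253 CPM in B6 and 1234, 1146 and 1236 CPM in D2. Atp5a1, the alpha subunit, had 690, 661 and 691 CPM in B6 and 700, 639 and 709 CPM in D2. Both overlapped between the strains, with log2 fold changes of -0.06 ± 0.04 and 0.00 ± 0.04 (SE). Over the whole complex the summed level in D2 was 0.997 times that in B6.

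In both strains the subunit genes were among the more abundant transcripts of the retina once length was taken into account. Per kilobase of the principal transcript, the median level of the 92 members was 78.2 CPM, against 7.87 CPM over 15260 tested protein-coding genes. The medians per kilobase were 145 CPM for complex V, 101 CPM for complex IV, 92.6 CPM for complex III, 59.7 CPM for complex I and 41.8 CPM for complex II. This order depends on the name rule: without its scarce tissue isoforms and Cox7a2l, the 11 complex IV subunits had a median of 165 CPM per kilobase. Atp5b led with 643 CPM per kilobase, followed by Ndufa4 with 398, and Cox4i1 reached 320. Uqcrh led complex III with 208 CPM per kilobase and Sdha led complex II with 84.0. In complex I, Ndufb8 stood at 173 CPM per kilobase. Ndufb2 stood at 176 on its shortest principal transcript of 455 bases, where its libraries overlapped those of Ndufb8, but at 18.3 on its longest of 4371 bases. The choice of transcript also moves Atp5g1 (127 or 16.04 CPM per kilobase), Ndufc1 (123 or 31.1) and Atp5d (58.1 or 38.4). Levels within a complex ranged widely: the 8 complex I assembly factors had a median of 13.2 CPM per kilobase and the 36 structural subunits one of 64.7.

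**Figure D4:**
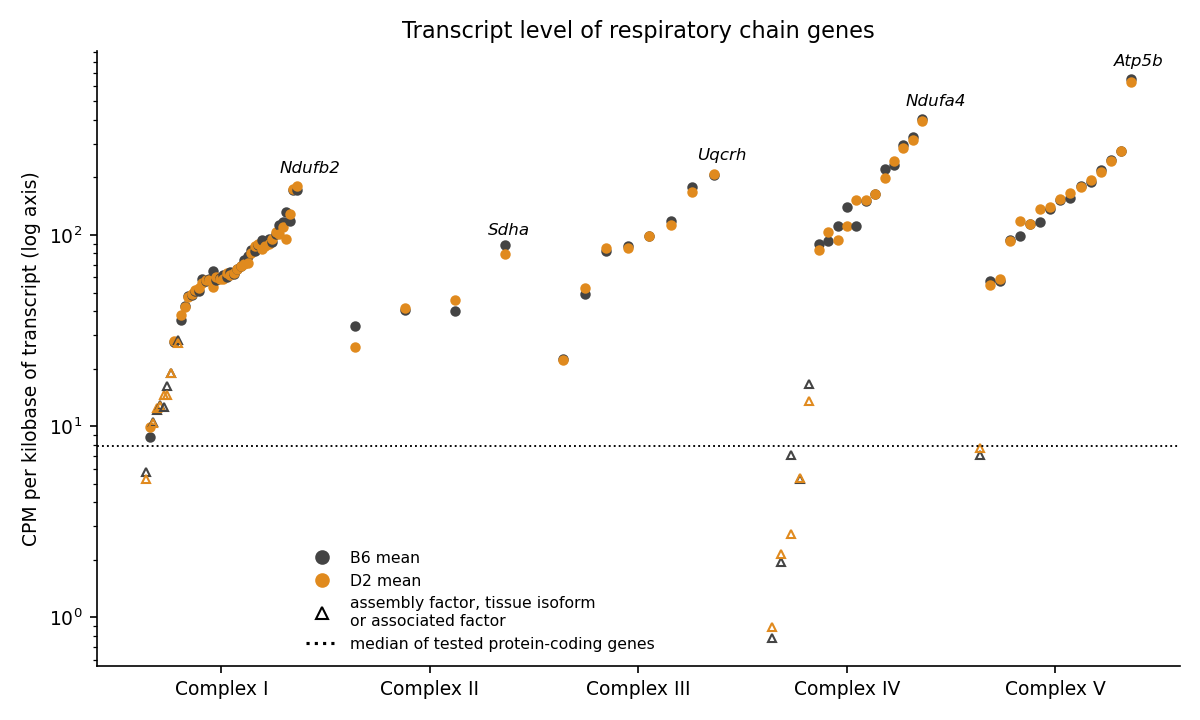
Mean level of each tested member in B6 and D2 (n = 3 each) as CPM per kilobase of transcript on a log axis, by complex; the dotted line is the median of tested protein-coding genes. Subunits lie mostly far above the line at 7.87, while assembly factors, tissue isoforms and Atp5s lie lower.

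Related genes outside the name rule were counted in the same fit, in which 29.7% of all tested genes were called. Of 15 tested respiratory chain genes with other names, 3 were higher (Higd2a, Acad9 and Tmem186) and 1 was lower (2010107E04Rik), or 26.7%. The electron carrier Cycs, at 127 ± 2.03 CPM in B6 against 129 ± 4.73 CPM in D2, did not pass the test. Of 38 tested genes for the assembly of complexes II to V, 23.7% were called. In D2 5 were higher (Ttc19, Cox18, Coa7, Pet100 and Atpaf1) and 4 lower (Sdhaf1, Sdhaf4, Coa3 and Lrpprc). The median log2 fold change of the 38 was 0.01. Cox18, which inserts the mitochondrially encoded Cox2 protein into the membrane, rose from 4.44 ± 0.339 to 6.92 ± 0.473 CPM (log2 fold change 0.63 ± 0.10 SE, edgeR adjusted p = 0.00021). Sdhaf1 and Sdhaf4, which help mature complex II, fell from 28.6 ± 2.87 to 23.5 ± 1.56 CPM and from 27.6 ± 3.10 to 23.4 ± 1.18 CPM (SD, n = 3 each).

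Lrpprc, an RNA-binding protein that stabilizes mitochondrial messenger RNA, had the largest difference of the assembly list. It had 145, 138 and 145 CPM in B6 and 65.6, 68.5 and 67.7 CPM in D2, so that the strains were far apart (-1.09 ± 0.04, adjusted p = 9.9e-12). Of the 13 mitochondrially encoded subunits, the partners of the members in complexes I, III, IV and V, 12 were lower in D2 by edgeR. By the same test 15.3% of all genes were lower. The median log2 fold change of the 13 was -0.47. mt-Nd2 of complex I had 398, 412 and 399 CPM in B6 and 238, 217 and 230 CPM in D2 (-0.82 ± 0.04, adjusted p = 5.3e-10). mt-Co1, the catalytic subunit of complex IV, had 7945, 7671 and 7673 CPM in B6 and 7685, 6985 and 7654 CPM in D2, which overlapped and did not pass the test (-0.06 ± 0.06, adjusted p = 0.47). The median over the nuclear-encoded members was -0.00, and the difference between both medians was not tested. Whether the Lrpprc difference bears on the mitochondrially encoded transcripts was not tested either.

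Regulators of mitochondrial biogenesis passed the test in 7 of 20 tested genes (35.0%, against 29.7% of all genes), with 5 higher (Ppargc1b, Tfb1m, Polg, Mterf1b and Mterf3) and 2 lower (Polg2 and Mterf4) and a median log2 fold change of 0.06. Ppargc1b, a coactivator of respiratory chain genes, had 24.3, 26.1 and 27.8 CPM in B6 and 36.9, 37.9 and 34.4 CPM in D2. It was higher in all 3 D2 libraries (log2 fold change 0.49 ± 0.06 SE, adjusted p = 8.4e-06). Its better known relative Ppargc1a had 62.5, 60.8 and 62.4 CPM in B6 and 61.8, 62.1 and 62.2 CPM in D2, which overlapped. Nrf1, whose motif is marked in the promoters of Cox6a1, Atp5g2 and Sdhb, averaged 55.2 ± 3.17 CPM in B6 against 59.3 ± 1.66 CPM in D2 (SD, n = 3 each; adjusted p = 0.099).

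**Figure D5:**
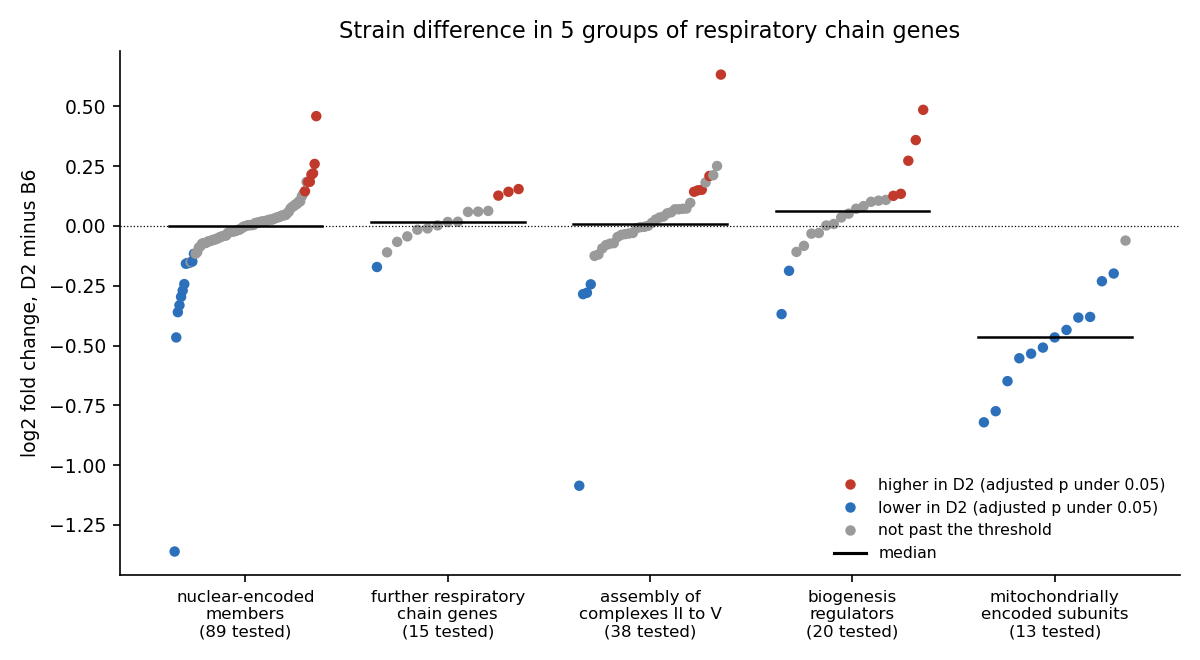
Log2 fold change (D2 minus B6) of the 89 tested members beside 4 groups of related genes, in order of size, with the median of each group as a line. The medians of the nuclear-encoded groups lie between -0.00 and 0.06 and that of the 13 mitochondrially encoded subunits at -0.47.

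The authors' deposited table listed 89 members, of which 28 had a false discovery rate under 0.05, against 40.9% of its 18100 rows. All 19 members that passed the test here were among the 28 in the authors' deposited table, with the same direction. Both results come from the same series, so this overlap is not independent support.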

How the data were processed

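Per the labels, RNA came from retina and libraries were made with a stranded total RNA kit. Per the submitters' processing notes, STAR, SAMtools, FastQC and edgeR were used with the build mm10; tool versions, read counter, gene models and whether counting used strand are not stated in those sources. The build mm10 is the sequence of B6, and how many D2 reads were lost or moved by differing bases was not tested. Where genes overlap on opposite strands, the reads cannot be assigned with certainty. For example, such overlaps cover 12.8% of the exon bases of Cox5a (with Gm26631), 5.71% of Uqcrb (with Gm10767) and 3.34% of Ndufs6 (with Mrpl36). The counts deposited by the authors are raw and carry a gene symbol. A further table deposited by the authors holds expression scores and a false discovery rate, which is an adjusted p-value from a test that no source here names.

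All 6 count columns were mapped by sample title and grouped by strain. Counts were filtered with filterByExpr, which left 18588 genes, scaled by TMM and fitted with edgeR 4.0.16 (R 4.3.3) by a quasi-likelihood model of strain. The Benjamini-Hochberg adjustment covered every tested gene, and the threshold was 0.05. TMM factors also scale the CPM values given. The biological coefficient of variation was 4.40%. Within a strain, paired libraries differed by more than sampling noise (chi-square per degree of freedom 6.22 to 24.6), so none was treated as a repeat deposit of another; this does not show that they came from separate mice. DESeq2 1.42.0 and limma-voom (limma 3.58.1) were run as alternatives, and the edgeR step was tested on simulated data.

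Genes were matched to the GENCODE annotation of mm10, in which all 92 members were found, and coordinates are of that build. Levels per kilobase used the shortest principal transcript with a curated RefSeq entry. Sequence sharing is the share of 31-base words of a member found in annotated transcripts of other genes; the whole genome was not searched. By that measure 12 members shared 20% or more, among the called ones Atp5g2 and Cox7c (24.5%). Called members not far under that cut were Cox6a1 (18.5%), Cox7a2l (16.6%), Cox5b (16.1%), Ndufs6 (15.1%), Atp5g1 (14.1%) and Cox5a (13.8%). Values in every library are given for up to 3 members higher and 3 lower per complex with the lowest adjusted p, the 2 most abundant per kilobase, and a list of isoforms and paralogs. The members, the related gene lists and the markers were chosen with earlier results of these data known. Values of some features are not reported here.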

Additional observations from a re-analysis of the deposited data

How the results depend on the processing

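Across 14 alternatives (other scaling factors, filters and tools, a replicate block, and each library left out), between 6 and 8 members were higher and between 10 and 13 lower in D2, against 7 and 12 in the results above, and 4502 to 5774 genes were called in all. Of the 19 called members, 16 passed the threshold under all 14 alternatives, and none of the 19 changed direction under any of them. Cox5a, Cox7b and Ndufc2 lost the call under at least 1 alternative, and Uqcrb and Uqcrfs1 gained one. Some members that were not called changed sign: Cox8b was at -0.0349 with limma-voom, and with each library left out in turn the log2 fold change ran from -0.46 to 0.52 for Cox8b, from -0.088 to 0.336 for Ndufa4l2, from -0.016 to 0.0605 for Cox6b2, from -0.0229 to 0.0498 for Atp5a1, from -0.0109 to 0.0464 for Ndufb8, from -0.0102 to 0.0498 for Cox7a2, and from -0.00343 to 0.0391 for Uqcrh. The cause was not tested. Standard errors reach 0.39 for the scarce isoforms, and Cox8b had 21, 41 and 11 counts in the D2 libraries.

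The replicate numbers of the labels did not pair the samples: deviations of same-numbered libraries from their strain means correlated at 0.135, 0.0657 and -0.0296. With the replicate number as a block, 5093 genes were called, and 7 members were higher and 11 lower, since Cox7b lost its call.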
